A study of Bos taurus with 16 samples.

Results

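The genes described here make cholesterol, sense sterols and move sterols in the cell. They were named as a list of 33 genes and found on the array by gene symbol: a probe set counted when the array annotation gave it exactly 1 symbol, and the brightest probe set of a gene was to be taken. This gave 30 genes, each with 1 probe set, of 18444 genes named in this way and 26773 probe sets in all. INSIG2 and STARD4 have no probe set of that kind, and FDPS only shares one with another gene, so these 3 were not analysed here.

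Each of the 16 arrays measured 1 Parda de Montaña heifer, whose mammary gland was sampled by needle biopsy as the first lactation closed. Before weaning at 6 months, 8 heifers had a starter concentrate beside the milk of their dams (CON) and 8 had that milk alone (NOCON); all suckled for 30 min at a time. Until 15 months the heifers were then given 67% forage with 33% concentrate or 87% forage with 13% concentrate, but the labels do not tie a ration to a heifer, so both groups may hold both rations. All values are the deposited log2 expression values, and arrays are named by group and replicate number.

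Cells build cholesterol from acetyl-CoA through mevalonate, isoprenoid phosphates, squalene and lanosterol. When sterols in the endoplasmic reticulum run low, SCAP carries the transcription factor SREBP2 (gene SREBF2) to the Golgi, where it is cut and released to switch on the enzymes of the pathway, and INSIG proteins hold SCAP back when sterols are plentiful. Oxidised sterols activate the liver X receptors, which switch on genes of sterol export. In the mammary gland, cholesterol is needed for the membrane that wraps milk fat globules.

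Milk protein genes stood near the top of every array. The mean level of 6 milk protein genes ran from 11.96 to 12.16 over the CON arrays and from 11.93 to 12.07 over the NOCON arrays, against a highest value of 12.66 on any array. The mean over 18 markers of luminal epithelium ran from 7.57 to 8.22 in CON and from 8.09 to 8.39 in NOCON, with the lowest value in CON 7. In 5 arrays, CON 2, CON 6, CON 7, NOCON 1 and NOCON 5, the median correlation with the other arrays was lower (0.866 in CON 7 and up to 0.974) than in the other 11 (at least 0.986). CON 7 also had the narrowest interquartile range of all probe sets (1.49, against 1.68 to 2.15 elsewhere) and the highest array median (4.57; lowest 4.25 in CON 8). Results are therefore given with all 16 arrays and with the 11, of which 5 are CON and 6 NOCON. In bulk tissue, fewer cells of a type and less RNA per cell cannot be told apart.

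The 16 heifers differed widely in many of these genes within both feeding groups. Among the enzymes of the mevalonate steps, HMGCS1, which makes HMG-CoA, ran from 5.09 to 6.36 in CON (median 6.03) and from 4.59 to 7.87 in NOCON (median 6.10). The lowest and the highest heifer were both NOCON, replicates 1 and 3. IDI1, the isomerase that readies isopentenyl diphosphate for chain building, ran from 5.54 (CON 7) to 9.0 (NOCON 3). GGPS1, which makes geranylgeranyl diphosphate, ran from 5.17 (CON 7) to 7.08 (NOCON 2). The kinases MVK and PMVK and the decarboxylase MVD, which act between mevalonate and isopentenyl diphosphate, spanned less, from 6.15 to 7.16, from 5.53 to 6.52 and from 5.86 to 7.0. The thiolase ACAT2, at 4.25 to 4.97, lay close to the medians of the arrays and so among the dim signals.

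The enzymes from squalene on included some of the widest ranges. FDFT1, squalene synthase, ran from 6.11 to 9.25, and SQLE, the epoxidase that acts on squalene next, from 5.69 (CON 7) to 9.21 (NOCON 7). CYP51A1, the lanosterol demethylase, ran from 4.63 to 7.63, and MSMO1 and NSDHL, which act in removing further methyl groups, from 6.24 to 9.58 and from 6.14 to 8.70. CON 7 was lowest for these 5 enzymes. LSS, which closes the sterol ring, ran from 4.49 (CON 6) to 5.86 (NOCON 3). The late enzymes SC5D, DHCR7 and EBP ran from 8.03 to 9.03, from 7.21 to 9.01 and from 7.21 to 9.01. TM7SF2, a sterol reductase, and HSD17B7, a keto-reductase of the same stretch, ran from 5.39 (CON 4) to 7.70 (NOCON 5) and from 6.53 (CON 7) to 8.90 (CON 8).

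Among the sensors, INSIG1 had the widest range of all 30 genes, from 5.72 (CON 7) to 9.90 (NOCON 3), while SREBF2 kept to 6.23 to 7.11 and SCAP to 5.25 to 6.08. NPC1 and NPC2, which carry cholesterol out of lysosomes, ran from 4.99 to 7.61 and from 9.04 to 10.28, both lowest in CON 7. SOAT1, which esterifies cholesterol for storage, ran from 5.25 (CON 7) to 7.48 (CON 8). The liver X receptor genes NR1H2 and NR1H3 ran from 5.88 to 6.67 and from 4.29 to 4.68. Of the liver X receptor targets, MYLIP, whose product marks lipoprotein receptors for breakdown, ran from 5.93 to 7.90. The exporters ABCA1 and ABCG1 lay near or below the array medians, at 4.25 to 4.72 and 3.64 to 4.27. ABCG2, a transporter known in the mammary gland for passing compounds into milk, ran from 9.49 to 10.61.

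**Figure D1:**
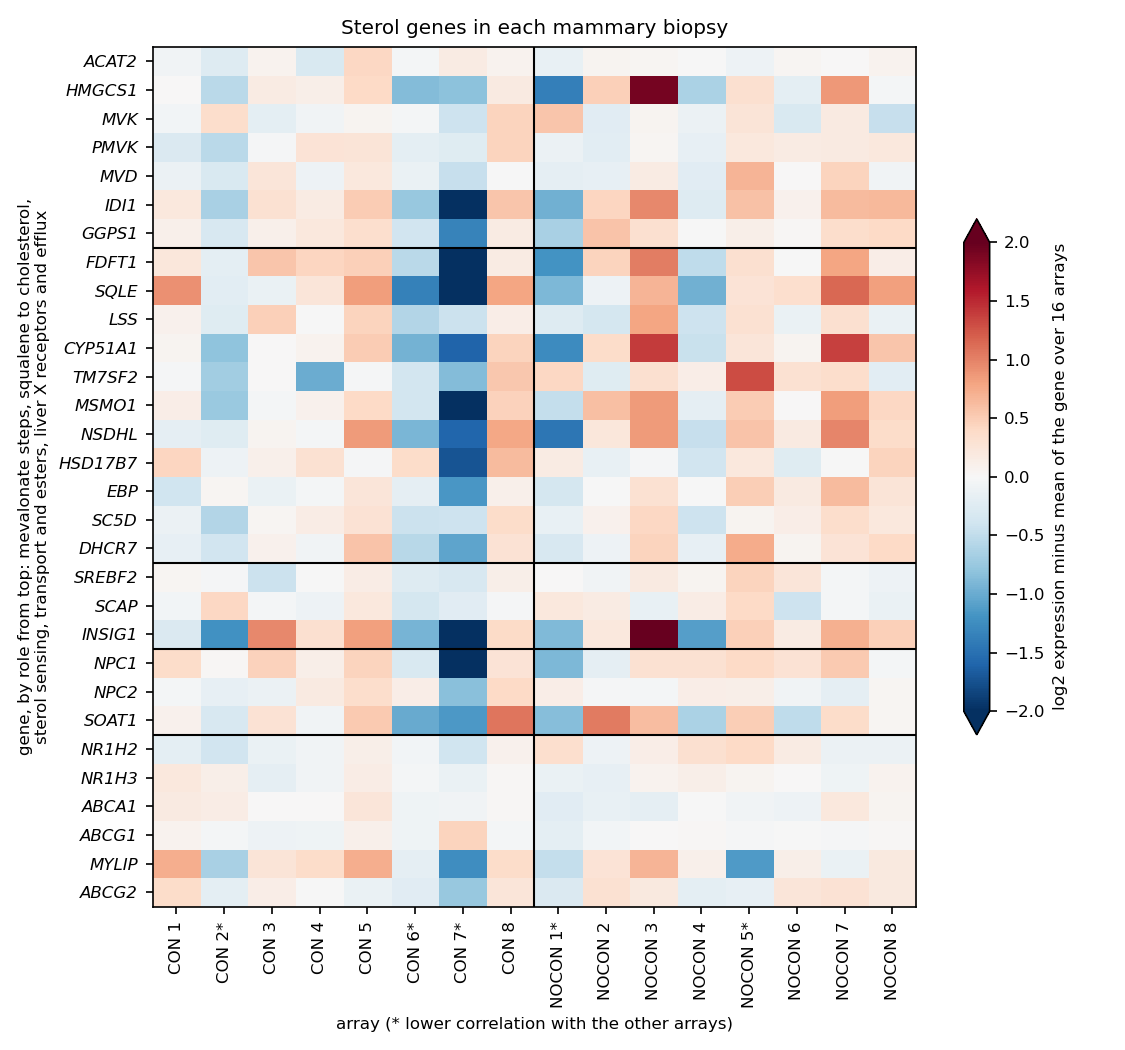
Deviation of each gene (rows, by role) on each array (columns) from its own mean over 16 arrays, in log2 units, with colours capped at 2 either way and asterisks on the 5 arrays of lower correlation. CON 7 is blue in most rows of synthesis enzymes, and NOCON 3 and NOCON 7 are red in many, while SREBF2, SCAP and the liver X receptor genes stay pale.

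CON 7 held the lowest value of 18 of the 30 genes, and of 21.05% of all probe sets. It also held the highest value of 1 listed gene and of 33.35% of all probe sets. NOCON 3 held the highest of 8 genes and of 7.34% of all probe sets. The 18 synthesis enzymes measured lay below their own means in 17 cases in CON 7 (median deviation -1.11 log2), in 17 in CON 6 (-0.41), in 16 in CON 2 (-0.31), in 15 in NOCON 1 (-0.34) and in 17 in NOCON 4 (-0.24). They lay above them in all but 1 case in CON 8, NOCON 3, NOCON 5 and NOCON 7, with median deviations of 0.41, 0.43, 0.31 and 0.40. In CON 5 they lay above them in all but 2 cases, with a median deviation of 0.40. Heifers with low and with high values stood in both feeding groups.

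The width of the ranges did not rest on the 5 arrays of lower correlation for every gene. Over the other 11 arrays INSIG1 still spanned 8.81-fold (6.76 in NOCON 4 to 9.90 in NOCON 3), HMGCS1 5.84-fold, SQLE 4.3-fold, CYP51A1 3.58-fold and SOAT1 3.25-fold. The SD of INSIG1 over these arrays (0.78) was larger than that of 99.2% of the 1000 probe sets closest to it in mean, and that of HMGCS1 (0.66) larger than that of 98.5%. The corresponding shares were 97.7% for SQLE, 97.6% for CYP51A1 and 96.9% for SOAT1. NPC1 spanned 6.15-fold over 16 arrays and 1.63-fold over the 11. SREBF2 spanned 1.60-fold over the 11, and its SD there (0.18) exceeded that of 45.6% of similar probe sets.

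Setting CON against NOCON tests for a lasting difference in these genes after concentrate was fed before weaning. None of the 30 passed an adjusted p of 0.05 with limma, with adjustment over all 26773 probe sets, of which 0.0598% passed; the lowest adjusted p of a listed gene was 0.53. At an unadjusted limma p under 0.05 stood 2 genes, TM7SF2 and NR1H2, both lower in CON, against 5.1% of all probe sets in that direction and 3.57% in the other. The exact permutation test also gave 2, against 10.4% of all probe sets in either direction, and no gene had groups that did not overlap (0.176% of all probe sets). Means were lower in CON for 24 of the 30 genes, against 48.1% of all probe sets, with a median log2 difference of -0.18 against 0.0058 over all probe sets. Without CON 7 it was 19 of 30, against 49.9%, with a median of -0.05. Over the 11 arrays 13 of 30 were lower, against 52.3% of all probe sets, with medians of 0.02 and -0.0042. There no gene passed an adjusted p of 0.05 (0.0859% of all probe sets did), and 0 genes were lower in CON at an unadjusted p under 0.05, against 4.88%. With arrays weighted by their fit, 16 of 30 were lower (51.1% of all probe sets), and 1 of them, EBP, had an unadjusted p under 0.05 (7.59%). The luminal epithelium markers, with CSN2, CSN3 and LALBA among them, were lower in CON for 15 of 18 over 16 arrays (median -0.14) and for 10 of 18 over the 11 (median -0.02). Fatty acid synthesis genes (9 of 14) and T and NK cell markers (5 of 8) were also mostly lower over 16 arrays. Milk protein genes (4 of 6), myoepithelium and smooth muscle (7 of 9) and endothelium (6 of 8) were mostly higher in CON. The remaining marker lists were evenly split or mostly higher. The part of these lists in the sterol gene values was not tested.

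Of the mevalonate steps, 5 of 7 had lower means in CON, against 48.1% of all probe sets. Without CON 7 it was 6 of 7, against 49.9%, and over the 11 arrays 3 of 7, against 52.3%. HMGCS1 averaged 5.79 ± 0.49 over the 8 CON arrays and 6.13 ± 0.99 over the 8 NOCON arrays (mean ± SD), a log2 difference of -0.34 with a 95% interval from -1.11 to 0.43. The whole CON range lay inside the NOCON range. Leaving out 1 array moved the difference to as little as -0.09 (without NOCON 3) or as much as -0.56 (without NOCON 1). IDI1 differed by -0.54 (SE 0.40) over 16 arrays and by -0.07 over the 11, with -0.22 without CON 7. GGPS1 differed by -0.28, and by -0.11 without CON 7. MVD and PMVK differed by -0.17 and -0.08, and ACAT2 and MVK by 0.01 and 0.02. Adjusted p for the 7 with limma ran from 0.664 to 0.973.

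All 11 enzymes from squalene on had lower means in CON over 16 arrays, against 48.1% of all probe sets, with a median log2 difference of -0.32. Without CON 7 it was 8 of 11, against 49.9%, with a median of -0.13. Over the 11 arrays it was 6 of 11, against 52.3%, with a median of -0.0091. These enzymes vary together over the arrays, so the counts are not of independent values. TM7SF2 ran from 5.39 to 6.93 in CON (median 6.19) and from 6.15 to 7.70 in NOCON (median 6.70). The ranges overlapped, although 7 of 8 CON arrays lay below the NOCON median. Its log2 difference was -0.60 (SE 0.24, limma adjusted p = 0.536; unadjusted exact permutation p = 0.0303), or -0.21 (95% interval -0.71 to 0.29) over the 11 arrays. EBP, a sterol isomerase, ran from 7.21 to 8.61 in CON (median 8.28) and from 8.01 to 9.01 in NOCON (median 8.58). It also overlapped, with a log2 difference of -0.38 (SE 0.18, adjusted p = 0.574 with limma) and of -0.27 over the 11 arrays.

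MSMO1 ran from 6.24 to 9.19 in CON (median 8.75) and from 8.25 to 9.58 in NOCON (median 9.19), and all 8 CON arrays lay below the NOCON median. Its log2 difference of -0.64 (SE 0.36, adjusted p = 0.601 with limma) was -0.33 without CON 7 and -0.21 over the 11 arrays. CYP51A1 ran from 4.63 to 6.74 in CON (median 6.26) and from 4.98 to 7.63 in NOCON (median 6.54), and differed by -0.57 (SE 0.38), by -0.38 without CON 7 and by -0.33 over the 11. DHCR7, which makes the last reduction to cholesterol in one branch, differed by -0.33 and over the 11 by -0.0091. FDFT1, SQLE and LSS differed by -0.25, -0.32 and -0.03 over 16 arrays and by 0.06, 0.21 and 0.22 over the 11, where the sign turned. HSD17B7 ran from 6.53 to 8.90 in CON (median 8.47) and from 7.88 to 8.71 in NOCON (median 8.25), so that the CON range enclosed that of NOCON. It differed by -0.0052 over 16 arrays. Over the 11 it differed by 0.35 (95% interval 0.02 to 0.68, limma adjusted p = 0.551), the one listed gene with an unadjusted limma p under 0.05 there, against 3.75% of all probe sets in that direction.

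**Figure D2:**
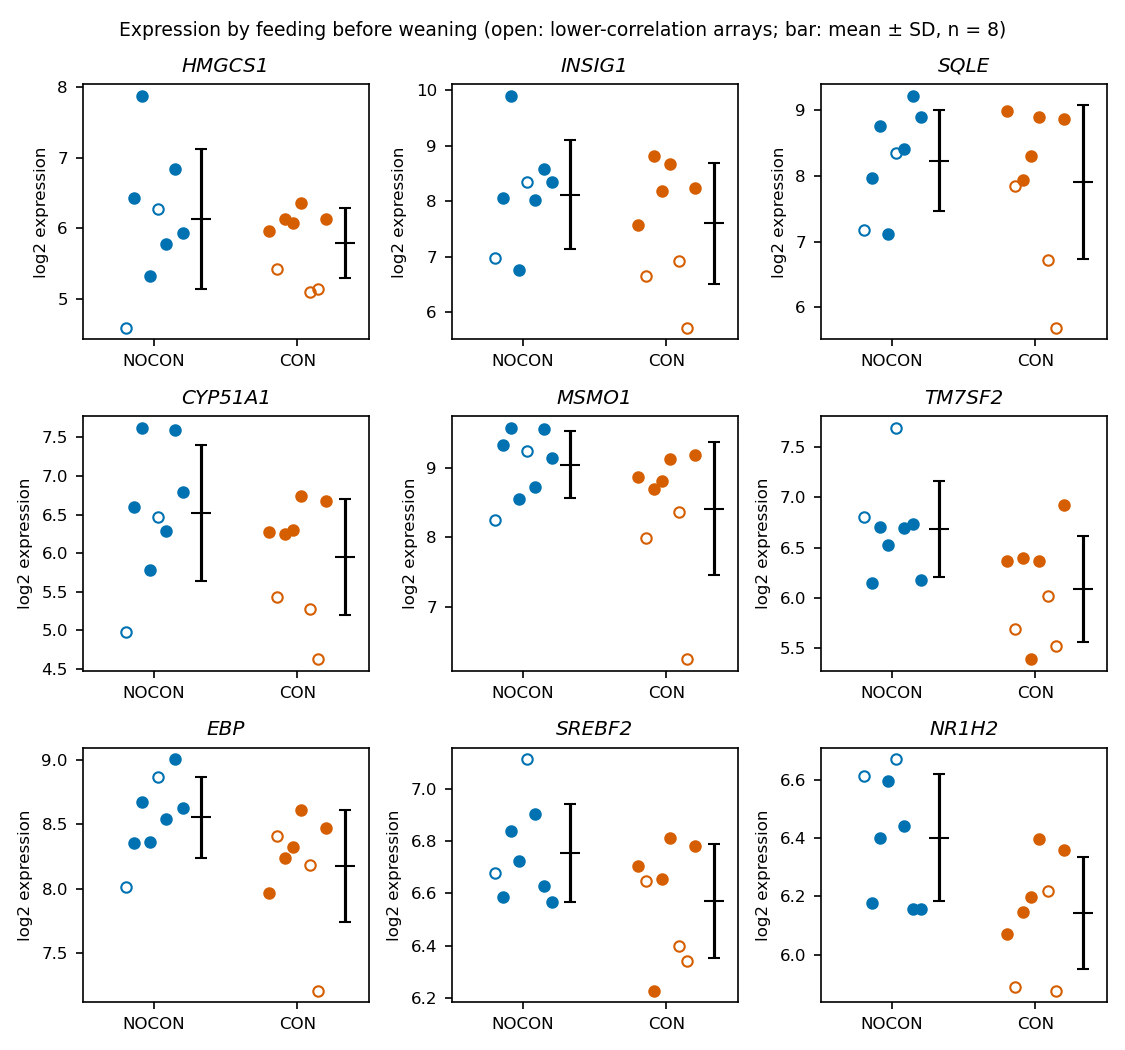
Log2 expression of 9 genes in each heifer, NOCON in blue and CON in orange, with open circles for the 5 arrays of lower correlation and black bars for mean ± SD (n = 8). The groups overlap for every gene shown, and CON 7 is the lowest orange circle for INSIG1, SQLE, CYP51A1, MSMO1 and EBP.

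Of the sensors, SREBF2 ran from 6.23 to 6.81 in CON (median 6.65) and from 6.57 to 7.11 in NOCON (median 6.70). The ranges overlapped, and the log2 difference was -0.18 (95% interval -0.39 to 0.03) or -0.07 over the 11 arrays. SCAP differed by -0.04 and by 0.07 over the 11. INSIG1, which holds SCAP back, ran from 5.72 to 8.83 in CON (median 7.88) and from 6.76 to 9.90 in NOCON (median 8.21), with wide overlap. Its difference of -0.52 has an interval from -1.54 to 0.50, without CON 7 it was -0.25, and over the 11 arrays it was 0.03 (interval -0.94 to 0.99).

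Of the transport genes, NPC1, NPC2 and SOAT1 had lower means in CON over 16 arrays, by -0.18, -0.03 and -0.14. Without CON 7 the values were 0.11, 0.09 and 0.01. The liver X receptor gene NR1H2 ran from 5.88 to 6.39 in CON (median 6.17) and from 6.16 to 6.67 in NOCON (median 6.42). All 8 CON arrays lay below the NOCON median, but the ranges overlapped. Its log2 difference was -0.26 (SE 0.10, limma adjusted p = 0.53), with a two-sided exact permutation p of 0.0255, or 0.405 adjusted over all probe sets, and it was -0.09 (interval -0.29 to 0.12) over the 11 arrays. NR1H3, the other receptor gene, differed by 0.02. ABCA1 stood above the NOCON median in 7 of 8 CON arrays and differed by 0.12 (SE 0.07, adjusted p = 0.611 with limma), likewise 0.12 over the 11, at levels where signals are dim. MYLIP, ABCG1 and ABCG2 differed by 0.10, 0.06 and -0.15, and MYLIP by 0.29 over the 11 arrays (interval -0.01 to 0.59).

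**Figure D3:**
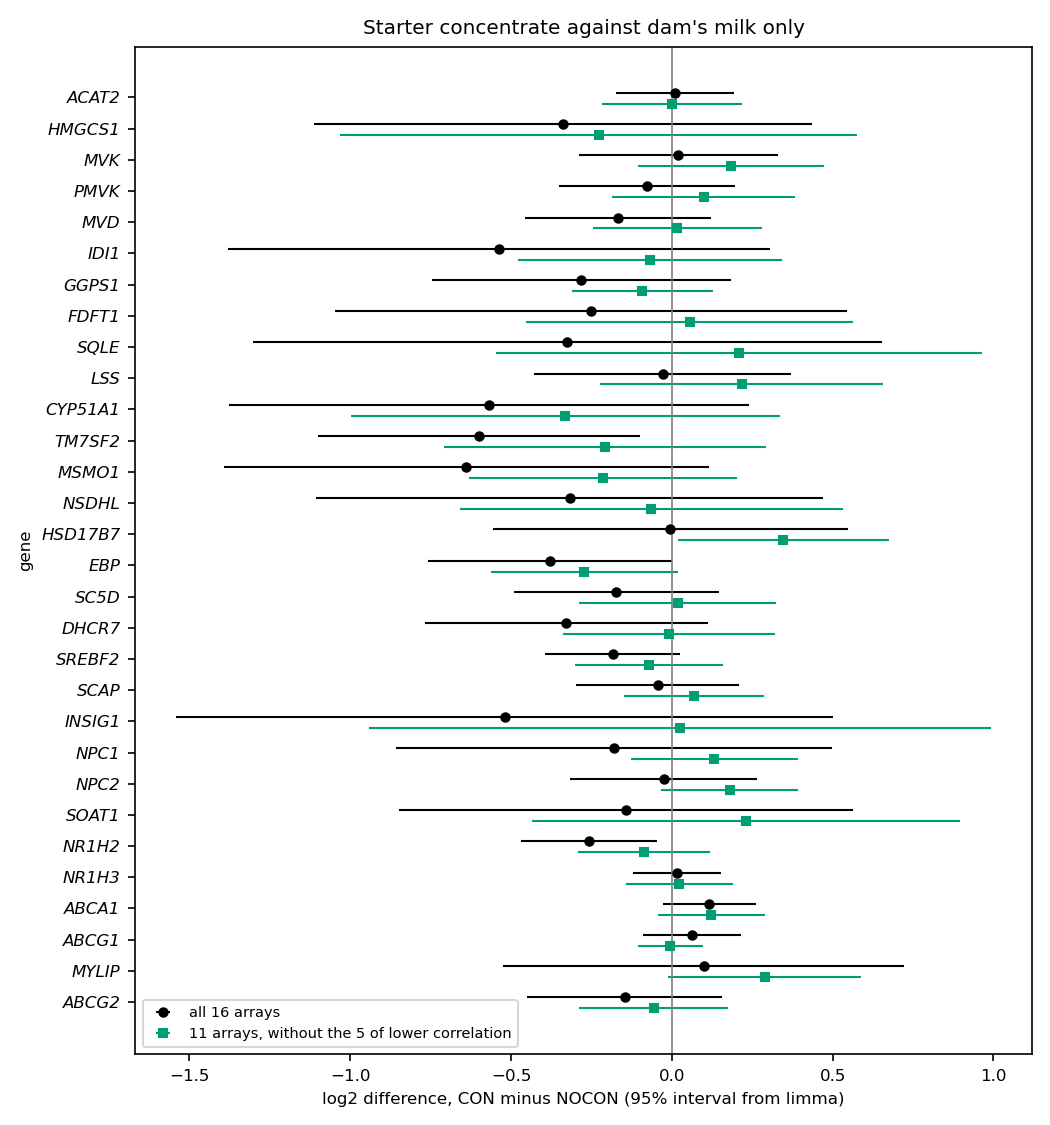
Log2 difference of CON minus NOCON for each gene with its 95% interval from limma, over all 16 arrays (black circles) and over the 11 arrays without those of lower correlation (green squares). Over 16 arrays the intervals of TM7SF2 (-1.10 to -0.10) and NR1H2 (-0.47 to -0.05) lie below 0, and over the 11 that of HSD17B7 (0.02 to 0.68) lies above it.

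Of 41 further genes of sterol handling, 34 were found on the array, and none passed an adjusted p of 0.05 with limma (lowest 0.544). Means were lower in CON for 20 and higher for 14, with a median of -0.03, against 48.1% of all probe sets lower, and 1 gene in each direction had an unadjusted p under 0.05, against 5.1% and 3.57% of all probe sets. UBE2G2, a ubiquitin-conjugating enzyme of the endoplasmic reticulum, stood at 6.80 ± 0.64 (SD over the 8 CON arrays) against 7.35 ± 0.23 (SD over the 8 NOCON arrays), a log2 difference of -0.55, or -0.29 over the 11 arrays. CYP7B1, an oxysterol hydroxylase, stood at 4.38 ± 0.12 and 4.24 ± 0.11, close to the array medians, a log2 difference of 0.14, or 0.15 over the 11. LPCAT3, a phospholipid-remodelling liver X receptor target, and the sterol exporter subunit ABCG8 differed by -0.24 and 0.16.

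Many of the genes varied together from heifer to heifer. This was measured against HMGCS1, a known SREBP2 target, with Pearson's r and Spearman's rho, each with a two-sided permutation test, and p-values adjusted over the 26772 correlations of HMGCS1 with every other probe set. Over 16 arrays 11 of the 29 other genes had a positive r past an adjusted p of 0.05, against 7.55% of all probe sets (and 2.92% with a negative r). With each array centred on its median the background was 13.5% positive and 2.94% negative, and 13 genes passed. By rho 16 of the 29 passed, against 9.85% of all probe sets.

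CYP51A1 was closest to HMGCS1 of the 29, with r = 0.91 and rho = 0.86 (permutation adjusted p = 0.00744 and 0.00645), a higher r than 99.98% of probe sets. The permutation p of its r, 1e-05, is the smallest that the resampling can give. INSIG1 followed with r = 0.87 (adjusted p = 0.0082; rho = 0.82), then NSDHL with 0.84 (0.00871; rho = 0.89), FDFT1 with 0.83 (0.011; rho = 0.94) and LSS with 0.81 (0.013; rho = 0.77), all by permutation. SOAT1, SC5D, IDI1, GGPS1, SQLE and DHCR7 passed with r from 0.68 to 0.77 (permutation adjusted p from 0.015 to 0.0475). MSMO1 had r = 0.70 with an adjusted p of 0.0523 and rho = 0.90 with an adjusted p of 0.00285, both by permutation. Without NOCON 3 and NOCON 1, the arrays farthest from the HMGCS1 median, 13 of 29 passed by r (4.56% of all probe sets) and 5 by rho (1.09%). CYP51A1 stood at 0.92, NSDHL at 0.87, INSIG1 at 0.86, FDFT1 at 0.83 and LSS at 0.76.

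**Figure D4:**
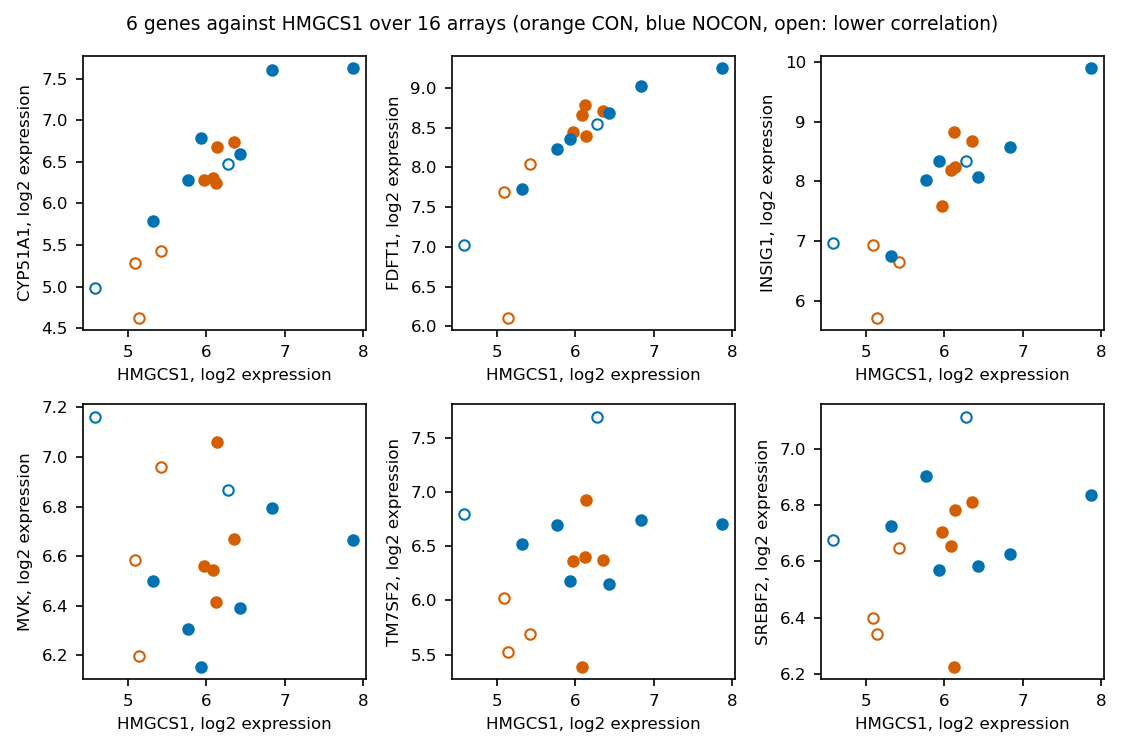
Log2 expression of 6 genes against that of HMGCS1, 1 point per heifer, orange for CON and blue for NOCON, open for the 5 arrays of lower correlation. CYP51A1, FDFT1 and INSIG1 climb with HMGCS1 (r = 0.91, 0.83 and 0.87 over 16 arrays), while MVK, TM7SF2 and SREBF2 scatter (-0.04, 0.28 and 0.32).

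Within each feeding group r was high for these genes as well, but high r was frequent among all probe sets there. Within CON 15 of the 29 genes had r of at least 0.7, against 17.8% of all probe sets and 28.4% of the brightest 60%. Within NOCON it was 11 of the 29, against 10.9% and 15.8%. Within CON, r was 0.95 for CYP51A1, 0.94 for LSS, 0.92 for INSIG1, 0.89 for NSDHL and 0.82 for FDFT1. Within NOCON, r was 0.93 for CYP51A1, 0.81 for LSS, 0.93 for INSIG1, 0.88 for NSDHL and 0.96 for FDFT1, and 0.93 for MSMO1. With 8 arrays none passed the exact permutation test after adjustment, and 0% of all probe sets did by r. With a positive r, 15 genes within CON and 11 within NOCON had an unadjusted p under 0.05, against 19.3% and 9.85% of all probe sets.

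Over the 11 arrays, FDFT1 had r = 0.90, CYP51A1 0.88, INSIG1 0.87, IDI1 and MSMO1 0.83 each, LSS 0.75 and NSDHL and SC5D 0.70 each. These 8 of 29 genes with r of at least 0.7 compare with 2.54% of all probe sets, and with 3.41% of the 60% of probe sets with the highest means. None passed after adjustment by permutation over these arrays (lowest adjusted p 0.127, for MSMO1), and 0% of all probe sets did by r. At an unadjusted p under 0.05 stood 8, against 5.59% of all probe sets with a positive r. Some of these values rest on the outer heifers. Without NOCON 3 and NOCON 4 as well, r was 0.88 for FDFT1, 0.80 for CYP51A1 and for MSMO1 and 0.63 for NSDHL, but 0.57 for IDI1, 0.45 for SC5D, 0.44 for INSIG1 and 0.33 for LSS. Over those 9 arrays 3 genes had r of at least 0.7, against 1.77% of all probe sets.

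The remaining genes had an r with HMGCS1 that did not pass, and for several of them it was low. Over 16 arrays r was -0.04 for MVK, 0.24 for ACAT2, 0.42 for PMVK, 0.28 for TM7SF2 and 0.21 for HSD17B7, with permutation adjusted p from 0.204 to 0.917. Over the 11 arrays the same genes gave 0.34, 0.12, 0.09, 0.21 and -0.0058. SREBF2, whose product drives the pathway, had r = 0.32 over 16 arrays and 0.12 over the 11 (permutation adjusted p = 0.324 and 0.888). SCAP gave -0.03 and -0.05. The liver X receptor genes NR1H2 and NR1H3 gave 0.05 and 0.16 (adjusted p = 0.897 and 0.656 by permutation), and ABCA1 and ABCG1 0.13 and -0.03. NPC1, MYLIP and ABCG2 had r from 0.50 to 0.61 over 16 arrays and from 0.13 to 0.31 over the 11. By rho NPC1 (0.65) and ABCG2 (0.66) did pass over 16 arrays (permutation adjusted p = 0.0469 and 0.0431), with 0.26 and 0.27 over the 11. The enzymes MVD and EBP had r = 0.60 each over 16 arrays (permutation adjusted p = 0.0826 and 0.0890). They passed by rho (0.71 and 0.65, permutation adjusted p = 0.0299 and 0.0485). Over the 11 their r was 0.56 and 0.48 and their rho 0.51 and 0.39.

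**Figure D5:**
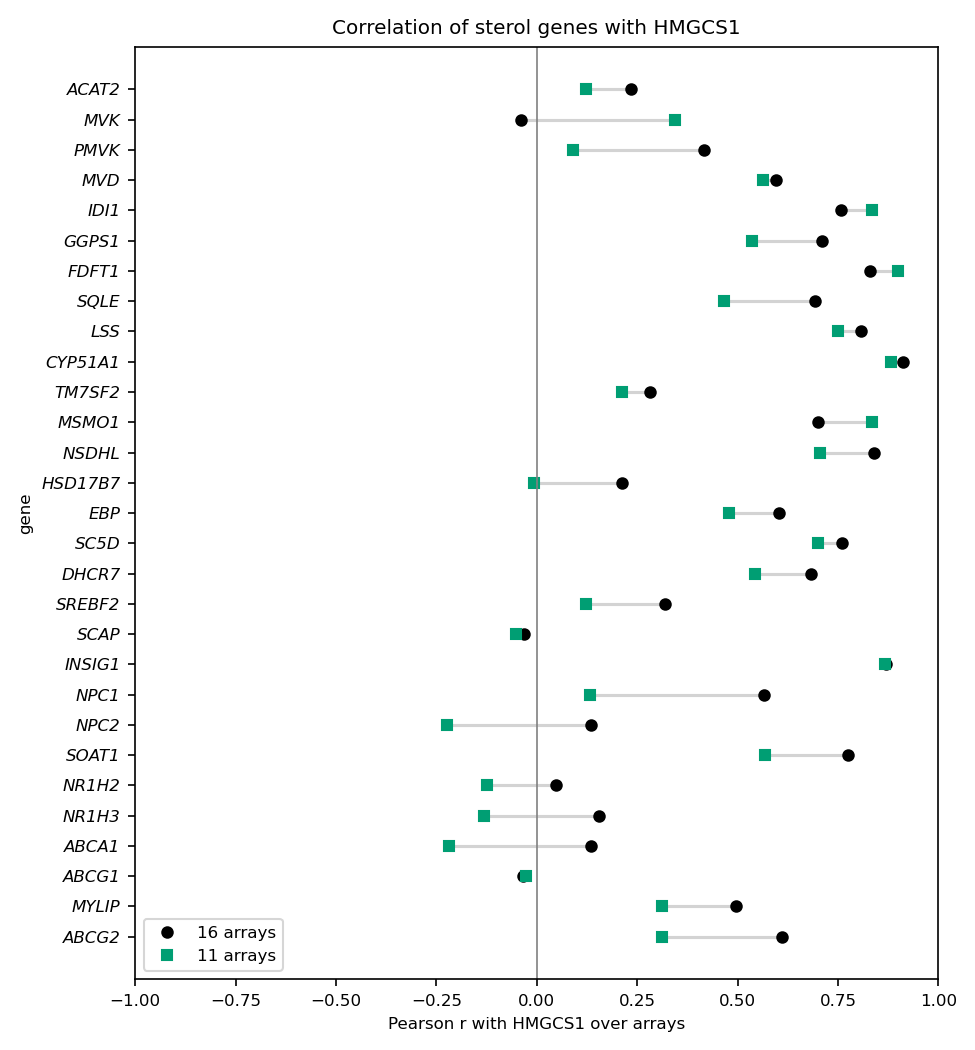
Pearson r of each gene with HMGCS1 over 16 arrays (black circles) and over the 11 arrays without those of lower correlation (green squares). CYP51A1, FDFT1, INSIG1, IDI1, MSMO1, LSS, NSDHL and SC5D stay at 0.70 or above in both. NPC1 lies at 0.57 and 0.13, and SCAP and ABCG1 lie near 0.

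Pair by pair, the 11 enzymes from squalene on had a median r of 0.74 over 16 arrays (55 pairs, from 0.29 to 0.94) and of 0.61 over the 11 (from -0.21 to 0.94). The 7 enzymes of the mevalonate steps had medians of 0.28 and 0.34 over 21 pairs. The 15 pairs of the liver X receptor and export genes had medians of 0.13 and 0.08. Over all pairs of probe sets the median r was 0.0095 over 16 arrays and 0.0023 over the 11. Those pairs were not matched in brightness, whereas 29 of the 30 listed genes are among the brightest 60% of probe sets. Over 16 arrays, r with HMGCS1 was at least 0.7 for 8.2% of that brighter part and for 5.25% of all probe sets. The r of the pairs share arrays and are given as a description.

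Of the 34 further pathway genes, 5 passed by a positive r with HMGCS1 over 16 arrays, against 7.55% of all probe sets. By a negative r 0 passed, against 2.92%. By a positive rho 10 passed, against 9.85%. By a negative rho 1 passed, SOAT2 (rho = -0.72, permutation adjusted p = 0.0268), and the share of all probe sets was not counted there. SOAT2 is dim, with means of 4.508 in CON and 4.495 in NOCON, close to the array medians. None passed over the 11 arrays by either measure, where 0% of all probe sets passed by r or by a positive rho. With each array centred on its median, 11 passed by a positive r, against 13.5%, and 12 by a positive rho, against 13.7%. SOAT2 also passed there by a negative r (-0.75, permutation adjusted p = 0.0142), against 2.94%. With quantile normalization 0 passed by a positive r, against 1.69%, and 3 by a positive rho, against 4.24%. SREBF1 passed there by a negative r (-0.78, permutation adjusted p = 0.0316), against 0.512%. The 5 that passed by a positive r on the deposited values, SOAT2 and SREBF1 are named here after their values were seen. RNF139, a sterol-sensing ubiquitin ligase, had r = 0.82 over 16 arrays (permutation adjusted p = 0.00977), 0.81 over the 11 and 0.63 over the 9. LBR, which carries the same sterol reductase activity as TM7SF2, had 0.75 (permutation adjusted p = 0.0228), 0.79 and 0.73. These 2 kept r above 0.6 in each, while the next 3 did not. ERLIN1, an endoplasmic reticulum scaffold protein that takes part in sterol control, had 0.73 (permutation adjusted p = 0.0333), 0.68 and 0.29. The lipoprotein receptor genes VLDLR and SCARB1 had 0.72 and 0.68 over 16 arrays (permutation adjusted p = 0.0287 and 0.0434), 0.32 and 0.51 over the 11, and 0.28 and 0.30 over the 9.

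HMGCS1 also moved with properties of the arrays. Of 16 array measures and marker list means, its r with the interquartile range of the array was 0.75 over 16 arrays (rho = 0.77, adjusted p = 0.0104 and 0.00384 by permutation) and 0.66 over the 11 (rho = 0.63, adjusted p = 0.436 and 0.234). It was 0.94 within CON and 0.81 within NOCON, and 0.74 without the 2 arrays farthest from the HMGCS1 median. With the array median, r was -0.47 and rho -0.79 over 16 arrays (permutation adjusted p = 0.165 and 0.00336). Over the 11 they were -0.50 and -0.77 (permutation adjusted p = 0.619 and 0.123). With the mean of 5 erythrocyte markers, which lay below the array medians at 3.90 to 4.33, r was -0.62 and rho -0.84 (permutation adjusted p = 0.111 and 0.00096). Over the 11 the erythrocyte values were -0.51 and -0.72 (permutation adjusted p = 0.619 and 0.130). With the mean of the luminal epithelium markers r was 0.45 and rho 0.64 over 16 arrays (permutation adjusted p = 0.165 and 0.031), and 0.13 and 0.22 over the 11. With the mean of 14 fatty acid synthesis genes r was 0.56 and rho 0.61 (permutation adjusted p = 0.111 and 0.0354), and 0.25 and 0.35 over the 11. With the median correlation of an array with the others r was 0.48 and rho 0.67 (permutation adjusted p = 0.165 and 0.0214), and 0.24 and 0.40 over the 11. With the mean of the milk proteins r was -0.35 and 0.03. The marker means of endothelium, of myoepithelium and smooth muscle and of fibroblasts and matrix had r of 0.57, 0.55 and 0.50 over 16 arrays. Their rho there was 0.50, 0.45 and 0.55, and none passed an adjusted p of 0.05 by either. Over the 11 their r was 0.26, 0.30 and 0.23. The 16 measures held 1 past an adjusted p of 0.05 by r and 6 by rho over 16 arrays. Over the 11 they held 0 by either. Within CON 5 passed by r and 0 by rho, and within NOCON 0 by either. Without the 2 arrays farthest from the HMGCS1 median, 2 passed by r and 4 by rho. The part of these measures in the shared movement was not tested. With the arrays brought to 1 distribution by quantile normalization, 5 of 29 genes passed by r, against 1.69% of all probe sets, and CYP51A1, FDFT1, INSIG1 and NSDHL stood at 0.88, 0.86, 0.85 and 0.84.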

How the data were processed

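Labelled cRNA was read on Affymetrix arrays, 1 per heifer. The deposited values are log2 expression per probe set; per the submitters' processing notes GCOS and RMA were used, with no version named; RMA corrects background, normalizes and summarises probes. The log base is not stated and was read from the range (2.73 to 12.66). No scanner files were used, so detection and RNA integrity were not assessed.

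CON was compared with NOCON by limma 3.58.1 (R 4.3.3; lmFit, eBayes, no covariates) over 26773 probe sets with Benjamini-Hochberg adjustment, and by the exact test over 12870 regroupings. Correlations used 100000 resamples, or all orders within a group of 8. The adjustment over all probe sets replaced one over the listed genes. Scripts were tested on simulated data. Arrays were set apart when their median correlation lay over 5 scaled median absolute deviations below the median. Symbols of all 30 genes matched the RefSeq table of ARS-UCD2.0 by gene ID. All listed genes and the 4 further pathway genes with the smallest p are named by a written rule; those named for their correlation were chosen after their values were seen. The listed genes, lists and tests were chosen with earlier results of these data known. The spread between heifers includes that of biopsy, RNA and array, and 8 arrays a group limit the precision. Promoter motifs were not analysed here.

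Alternatives were a filter, other eBayes settings, array weights, centring, quantile normalization, a block for the replicate number, arrays left out and another threshold.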

Additional observations from a re-analysis of the deposited data

Results flagged for a closer look

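Single heifers stood far from the rest of their group for 10 genes: the gap to the nearest heifer was above the Dixon limit for 8 samples as a share of the range. There were 11 such values in 60 groups of values tested. Chance flags about 1 in 20 where no array is outlying as a whole. The share flagged over all probe sets was not counted, and the genes share arrays, so the flags are not independent. Of the 11, 8 were the lowest CON value, all in CON 7: IDI1 (5.54), GGPS1 (5.17), FDFT1 (6.11), MSMO1 (6.24), HSD17B7 (6.53), EBP (7.21), NPC1 (4.99) and NPC2 (9.04). CON 7 was also the highest CON array for ABCG1 (4.27), and NOCON 1 the lowest NOCON array for ABCG1 (3.64). TM7SF2 was highest in NOCON 5 (7.70; the next heifer stood at 6.80). CON 7 is the array with the lowest median correlation (0.866) and the narrowest interquartile range (1.49). It held the lowest value of 21.05% and the highest of 33.35% of all probe sets, so its flags are not particular to these genes.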

How the results depend on the processing

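None of the 30 genes passed an adjusted p of 0.05 or 0.10 under any limma fit (lowest 0.282, for EBP with array weights), or 0.05 by the exact test. Without the 5 arrays of lower correlation, 13 of 30 means were lower in CON, 0 genes lower and 1 higher at an unadjusted p under 0.05; array weights gave 1 lower. With 1 array left out these counts ran from 2 (without CON 1, for example) to 5 lower (without CON 5; 4 without NOCON 1), against 5.32% and 5.96% of all probe sets in those fits and 3.9% to 5.96% over all 16 such fits, and from 0 to 1 higher (without NOCON 7; 2.61%). The sign of these differences turned. Without the 5 arrays these were PMVK 0.10, MVD 0.016, FDFT1 0.056, SQLE 0.21, LSS 0.22, HSD17B7 0.35, SC5D 0.018, SCAP 0.069, INSIG1 0.026, NPC1 0.13, NPC2 0.18, SOAT1 0.23 and ABCG1 -0.0057. With array weights these were ACAT2 -0.021, PMVK 0.0072, FDFT1 0.075, SQLE 0.044, LSS 0.17, HSD17B7 0.29, SCAP 0.027, INSIG1 0.024, NPC1 0.0497, NPC2 0.13, SOAT1 0.17 and ABCG1 -0.0089. With median centring these were ACAT2 -0.015, MVK -0.0053 and NR1H3 -0.0091, and with quantile normalization ACAT2 -0.011, HSD17B7 0.12, NPC2 0.032 and NR1H3 -0.012. With 1 array left out, differences ran from -0.049 to 0.055 for ACAT2, -0.045 to 0.10 for MVK, -0.44 to 0.035 for FDFT1, -0.10 to 0.082 for LSS, -0.10 to 0.24 for HSD17B7, -0.11 to 0.0089 for SCAP, -0.32 to 0.11 for NPC1, -0.084 to 0.092 for NPC2, -0.30 to 0.013 for SOAT1, -0.013 to 0.042 for NR1H3 and -0.057 to 0.28 for MYLIP. The labels do not say whether the replicate numbers pair the heifers. The correlation of same-numbered arrays was above 0.1 in 2 of 8 pairs, which cannot settle this, since single outlying arrays weigh on it. The limma fit with the replicate number as a block gave 24 lower means, 2 with an unadjusted p under 0.05 and 0 passing. Dim signal limits ABCG1, which the filter on the brightest 60% of probe sets drops. Each listed gene has 1 probe set, so averaging probe sets changes nothing.

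For correlations with HMGCS1, 5 genes passed by r with quantile normalization, against 1.69% of all probe sets with a positive r. Within CON, within NOCON and over the 11 arrays 0 passed. Over the 9 left when the 2 farthest of these go, 0 passed and 3 had r of at least 0.7. That setting was added after seeing the data. In each setting where 0 passed, 0% of all probe sets passed by r as well, so this does not set the listed genes apart. The sign of r turned without the 2 farthest arrays for MVK (0.27), SCAP (0.29) and NR1H3 (-0.12), within CON for MVK (0.27) and SCAP (0.36), and within NOCON for NPC2 (-0.59), NR1H2 (-0.44) and ABCG1 (0.52). Over the 11 it turned for MVK (0.34), HSD17B7 (-0.0058), NPC2 (-0.22), NR1H2 (-0.12), NR1H3 (-0.13) and ABCA1 (-0.22), and over the 9 for MVK (0.46), HSD17B7 (-0.28), SREBF2 (-0.17), SCAP (0.61), NPC2 (-0.12), NR1H2 (-0.20), NR1H3 (-0.35) and MYLIP (-0.31). Median centring turned MVK (0.11), SCAP (0.14) and ABCG1 (0.26), and quantile normalization PMVK (-0.12), HSD17B7 (-0.0083), SREBF2 (-0.38), NR1H2 (-0.49) and ABCG1 (0.40). The causes were not tested.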

Other observations

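The genes closest to HMGCS1 over all probe sets, listed after their values were seen, held 1 of the listed genes among the closest 20, both over 16 arrays and over the 11. Over 16 arrays, CYP51A1 ranked 6 by r. Above it stood unnamed probe sets and UTP4 (r = 0.94), ELP4 (0.93) and LTV1 (0.92). ACLY, which makes cytosolic acetyl-CoA for both fatty acids and sterols, had r = 0.90. Over the 11 arrays, RRP15 ranked 1 (0.95), UTP4 ranked 5 (0.93) and FDFT1 ranked 17 (0.90).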
